A study of Bos indicus with 6 samples.

Results

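The genes described here make, degrade and read the second messengers cAMP and cGMP in the bovine isthmus, the narrow part of the oviduct next to the uterus. They were taken by gene symbol alone and comprise the phosphodiesterases PDE1 to PDE11, the adenylyl cyclases, the guanylyl cyclases named GUCY1 and GUCY2, the subunits of protein kinase A, the protein kinases G and the A-kinase anchoring proteins (AKAPs). This rule gave 60 of the 24616 genes listed, of which 22 were phosphodiesterases by name, 10 adenylyl cyclases, 6 guanylyl cyclases, 6 protein kinase A subunits, 2 protein kinases G and 14 AKAPs. The 22 include PDE6D, a prenyl-binding protein named for the photoreceptor enzyme. The rule itself used no expression value, although earlier results of these data were known when it was set.

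Adenylyl cyclases make cAMP and guanylyl cyclases make cGMP, and phosphodiesterases break one or both down. cAMP releases the catalytic subunits of protein kinase A from its regulatory subunits, which AKAPs hold at defined places in the cell, and cGMP activates protein kinase G. In the oviduct, cAMP and cGMP are known for relaxing the smooth muscle of the wall, and cAMP also for regulating ciliary beat and epithelial secretion.

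The samples were isthmus tissue through the full thickness of the wall, from the oviduct on the side of the corpus luteum (CL), of 6 multiparous, non-lactating Nelore cows, each giving 1 RNA-seq library, on day 4 after induction of ovulation. The comparison asks how the size of the ovulatory follicle and of the CL formed from it, and with them estradiol and progesterone, bears on the transcripts of the isthmus. The large follicle and large CL group (LF/LCL) comprised cows 617, 79 and 527, and the small follicle and small CL group (SF/SCL) cows 856, 489215 and 97. All 6 cows were pre-synchronized with a GnRH agonist and a prostaglandin F2 alpha analog (PGF), and on day -10 received a progesterone device of 1 g with 2 mg estradiol benzoate. They received PGF at device removal and again some hours later, and GnRH agonist on day 0. LF/LCL cows also received PGF on day -10, and their device was removed 42 h before GnRH, compared with 30 h in SF/SCL cows. Sequenced cows were the highest ranked of LF/LCL and the lowest ranked of SF/SCL by follicle diameter, estradiol, CL area and progesterone, so the groups are the extremes of the model.

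Libraries held 23899117 to 34193164 counted reads, of which the 60 genes took 0.274% to 0.289% in 5 cows and 0.167% in cow 489215. Values are normalized counts, that is, reads per gene divided by a size factor of the library. These summed to 33913666 in cow 489215, compared with 25901138 to 26900121 in the other cows. The rank of cow 489215 for a gene therefore depends in part on this scaling. The library of cow 489215 stood apart. Its counts differed from those of the other SF/SCL cows by a chi-square of 400 to 473 per degree of freedom, whereas all other pairs of the same group gave 34.5 to 44.2. Results are therefore given with and without this cow. It was singled out from these same values, and leaving it out keeps only cows 856 and 97 in SF/SCL. The p-values without it depend on that choice and are not comparable with those of all libraries.

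Of the 60 genes, 55 passed the filter on low values and were tested, and 19 of them reached a mean of at least 1000 normalized counts. The adenylyl cyclase ADCY1, the anchor AKAP17A, the photoreceptor phosphodiesterase gene PDE6B and the photoreceptor guanylyl cyclase gene GUCY2F had a mean of 5 or less. PDE6B had 1 read in cow 617 and GUCY2F 1 read in cow 97, with 0 in every other library, where a count of 0 allows up to 3 reads by counting error alone. The protein kinase G gene PRKG2 had 1 to 27 reads per library and an SD above its mean, and was not tested.

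With all 6 libraries, no gene differed between the groups at an adjusted p-value under 0.05 (limma with Benjamini-Hochberg adjustment, 0 of 55 genes and 0% of the 15387 genes tested, smallest adjusted p 0.351). Without adjustment, 17 of the 55 genes (30.9%) had a limma p under 0.05, compared with 8.66% of all genes tested. Of these 17, 12 were higher in LF/LCL (background 4.48%) and 5 in SF/SCL (background 4.19%). This count was 10 without cow 617 (background 5.91%), 7 without cow 79 (background 3.94%), 8 without cow 527 (background 4.32%), 14 without cow 856 (background 6.87%), 13 without cow 97 (background 6.84%) and 30 without cow 489215 (background 33.9%). edgeR called 0 genes of the list and 0% of all genes, with 16 of the 55 under an unadjusted p of 0.05 (background 8.49%). DESeq2 called 5 genes, compared with 2.66% of all genes, with AKAP5 and PDE1B higher in LF/LCL (background 1.34%) and AKAP7, PDE9A and GUCY2C higher in SF/SCL (background 1.32%).

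Most of these genes were lower on average in SF/SCL cows when all libraries were used. The mean log2 value was higher in LF/LCL for 42 of the 55 genes (76.4%), compared with 51.4% of all genes, and the median log2 fold change of SF/SCL over LF/LCL was -0.33, compared with -0.02. Without cow 489215 the directions were divided, with 29 genes higher in LF/LCL and 26 in SF/SCL, and the median was -0.06.

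Without that cow, 22 of the 55 genes (40.0%) differed at an adjusted p under 0.05 in limma, compared with 18.2% of the 15495 genes then tested. Of these, 11 were higher in LF/LCL (background 7.92%) and 11 in SF/SCL (background 10.3%). Leaving out any other single cow gave 0 calls. The 22 genes comprised 9 phosphodiesterases, 3 adenylyl cyclases, 4 guanylyl cyclases, PRKACB, PRKG1 and 4 AKAPs. Of the 22, 12 also had an unadjusted p under 0.05 with all 6 libraries, 8 of them higher in LF/LCL and 4 in SF/SCL. Both fits share the other libraries, so this overlap is not independent support.

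All LF/LCL values lay on one side of all SF/SCL values, without overlap, for 19 of the 55 genes, 14 of them higher in LF/LCL and 5 in SF/SCL, compared with 18.1% of all genes tested (8.60% higher in LF/LCL and 9.51% in SF/SCL). For each of these 19 genes the exact two-sided permutation test over cows gave p = 0.1, the smallest value that 3 against 3 cows allow. Without cow 489215 the groups did not overlap for 33 genes, compared with 52.0% of all genes.

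**Figure D1:**
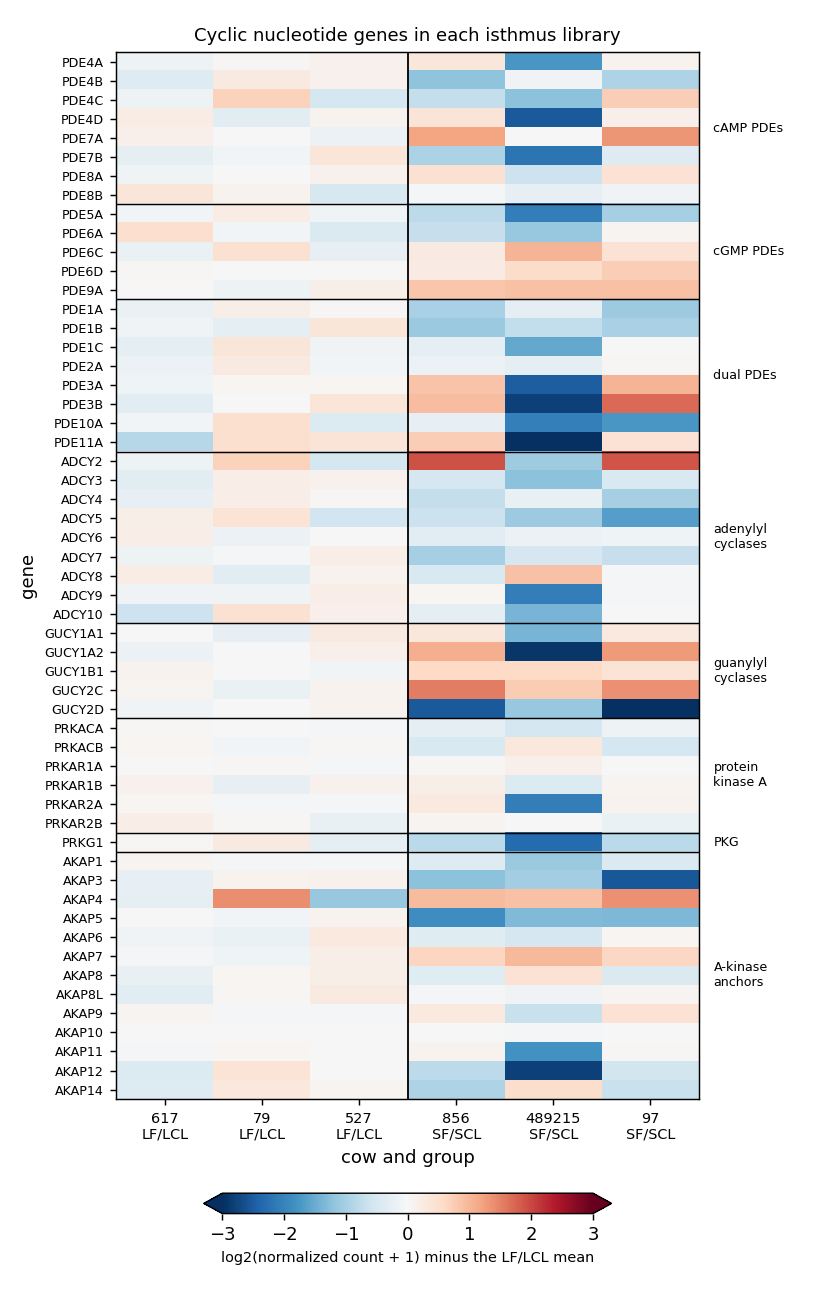
Heat map of the 55 tested genes (rows, by function) in the 6 libraries (columns, cow and group), as log2(normalized count + 1) minus the mean of the LF/LCL cows, with the colours ending at 3 in either direction. Cow 489215 is the lowest of the 6 libraries for 29 genes, and its column differs from those of cows 856 and 97 of the same group in rows such as PDE4D, PDE3A, PDE3B, GUCY1A2 and PRKAR2A.

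Among phosphodiesterases, the pattern of the cGMP-specific enzymes was split. PDE5A, which hydrolyses cGMP and is the target of sildenafil, had 5269, 6431 and 5046 normalized counts in LF/LCL cows 617, 79 and 527, and 3205, 1327 and 2764 in SF/SCL cows 856, 489215 and 97. The groups did not overlap, and cow 489215 was the lowest. LF/LCL cows averaged 5582 ± 744 (SD, n = 3) and SF/SCL cows 2432 ± 982 (SD, n = 3), a log2 fold change of -1.29 ± 0.35 (SE), with an unadjusted limma p of 0.00891 and an adjusted p of 0.405. It was -0.90 without cow 489215, with an adjusted limma p of 0.00862.

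PDE9A, which hydrolyses cGMP with high affinity, went the other way. It had 278, 251 and 319 normalized counts in cows 617, 79 and 527, and 504, 519 and 520 in cows 856, 489215 and 97. Here all 3 SF/SCL cows were alike and above every LF/LCL cow, with a log2 fold change of 0.87 ± 0.21 (SE). In limma its unadjusted p was 0.00535 and its adjusted p 0.381, and in DESeq2 the adjusted p was 0.00293. Without cow 489215 it was 0.86, with an adjusted limma p of 0.0167. PDE6D, a prenyl-binding protein named for the photoreceptor enzyme, also did not overlap, with 661 to 692 in LF/LCL and 794 to 1115 in SF/SCL (log2 fold change 0.51 ± 0.20, unadjusted limma p 0.0429, adjusted p 0.554). The photoreceptor catalytic subunit genes PDE6A and PDE6C stayed at or under 39.8 and 18.6 normalized counts in every cow, and their groups overlapped.

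The calcium- and calmodulin-activated phosphodiesterases PDE1A and PDE1B, which hydrolyse both messengers, were higher in LF/LCL. PDE1A had 466, 604 and 554 normalized counts in cows 617, 79 and 527, and 274, 442 and 254 in cows 856, 489215 and 97. PDE1B had 248, 220 and 343 in LF/LCL and 123, 160 and 134 in SF/SCL, in the same order of cows. Neither gene overlapped between the groups, although cow 489215 was the highest SF/SCL cow for both. Their log2 fold changes were -0.78 ± 0.29 (SE) for PDE1A (unadjusted limma p 0.0322, adjusted p 0.511) and -0.94 ± 0.29 (SE) for PDE1B (unadjusted limma p 0.0161, adjusted p 0.447). Without cow 489215 both differed at adjusted limma p-values of 0.0102 and 0.0321. The third member, PDE1C, had 97.3, 151 and 108 in LF/LCL and 94.9, 39.9 and 116 in SF/SCL, with overlap.

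For the cGMP-inhibited phosphodiesterases PDE3A and PDE3B the 3 SF/SCL cows were not alike. PDE3A had 384, 442 and 442 normalized counts in LF/LCL cows 617, 79 and 527, 766 and 859 in SF/SCL cows 856 and 97, and 74.6 in cow 489215. PDE3B had 475, 601 and 771 in LF/LCL, 1144 and 1953 in cows 856 and 97, and 85.2 in cow 489215. For both genes, cow 489215 was the lowest of the 6 and the other SF/SCL cows the highest. The log2 fold change was -0.20 for PDE3A and -0.07 for PDE3B with all libraries, and 0.94 and 1.31 without cow 489215, where adjusted limma p-values were 0.00770 and 0.0255. The count models on the 6 libraries gave both genes a positive sign, with log2 fold changes in DESeq2 of 0.43 and 0.79.

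The cGMP-stimulated PDE2A was the second most abundant phosphodiesterase by normalized count, a measure not corrected for gene length. It had 2786, 3794 and 2978 in LF/LCL and 2810, 2621 and 3256 in SF/SCL, and the log2 fold change was -0.13 (95% confidence interval -0.59 to 0.33). The groups overlapped, and cow 489215 had the lowest value of the 6. PDE10A, which hydrolyses both messengers, had 122, 181 and 97.5 in LF/LCL and 108, 30.6 and 37.9 in SF/SCL, with overlap (log2 fold change -1.35 ± 0.55, unadjusted limma p 0.0480, adjusted p 0.570). PDE11A had 1 read in cow 489215 and 10 to 45 reads in the other libraries.

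None of the 8 cAMP-specific phosphodiesterases had an unadjusted limma p under 0.05 with all libraries. PDE7A had 206, 187 and 164 normalized counts in LF/LCL cows 617, 79 and 527, and 422, 184 and 464 in SF/SCL cows 856, 489215 and 97. PDE7B, its paralog, had 231, 264 and 365 in LF/LCL and 145, 61.2 and 215 in SF/SCL, without overlap. The 2 genes went in opposite directions, and their balance separated the groups in every cow. PDE7A made up 31.0% to 47.1% of the PDE7 normalized counts in LF/LCL cows and 68.4% to 75.0% in SF/SCL cows, cow 489215 included with 75.0%. PDE7 was the only one of the 9 sets of related genes compared in which any share did not overlap between groups. PDE7A had a log2 fold change of 0.83 with all libraries (adjusted limma p 0.647) and was called without cow 489215 (1.25, adjusted limma p 0.00745), whereas PDE7B was not (-0.67, adjusted limma p 0.142). PDE7B and the PDE7 share were chosen after their values were seen.

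PDE4B had 247, 390 and 359 normalized counts in LF/LCL and 141, 305 and 171 in SF/SCL. Its groups overlapped through cow 489215 alone. Its log2 fold change was -0.74 with all libraries (adjusted limma p 0.657) and -1.07 without that cow (adjusted limma p 0.0319). PDE8A, a high-affinity cAMP phosphodiesterase, had 1000 to 1188 in LF/LCL, 1496 and 1460 in cows 856 and 97, and 707 in cow 489215, and was called without that cow (0.44, adjusted limma p 0.0387) but not with it (0.09, adjusted limma p 0.959). The remaining cAMP-specific genes PDE4A, PDE4C, PDE4D and PDE8B were not called in either fit. PDE4D and PDE4A were lowest in cow 489215, with 45.3 against 209 to 346 and 242 against 730 to 1023 in the other cows. In this cow PDE4B took 51.1% of the PDE4 normalized counts, compared with 9.27% to 26.9% in the other 5.

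**Figure D2:**
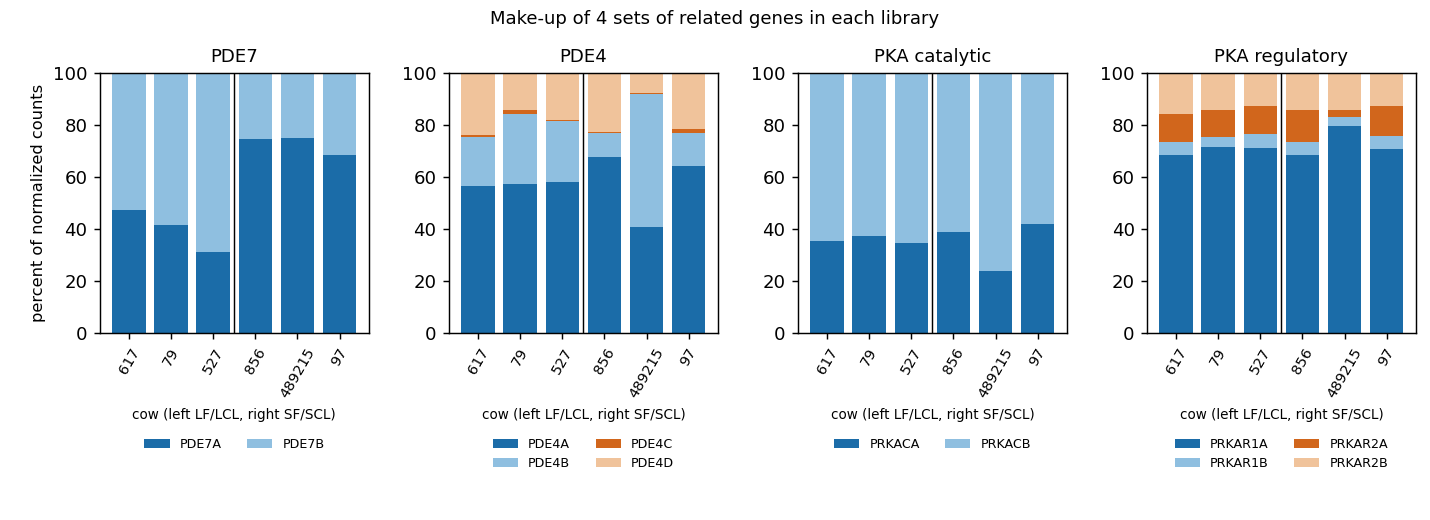
Stacked bars of the percent of normalized counts that each gene takes within 4 sets of related genes, for each cow (3 LF/LCL cows left of the line, 3 SF/SCL cows right of it), not corrected for gene length. The PDE7A share is 31.0% to 47.1% in LF/LCL and 68.4% to 75.0% in SF/SCL, and in cow 489215 the PDE4B share of 51.1%, the PRKACB share of 76.4% and the PRKAR2A share of 2.56% lie outside the range of the other 5 cows.

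Among adenylyl cyclases, 7 of the 9 tested were higher in LF/LCL on average, compared with 51.4% of all genes. An unadjusted limma p under 0.05 was found for 3, all higher in LF/LCL (background 4.48%). ADCY5, an isoform inhibited by calcium, had 3707, 4363 and 2220 normalized counts in cows 617, 79 and 527, and 2106, 1543 and 1053 in cows 856, 489215 and 97. The groups did not overlap, but 2220, the lowest LF/LCL value, was close to 2106, the highest SF/SCL value. The log2 fold change was -1.13 ± 0.35 (SE), with an unadjusted limma p of 0.0167 and an adjusted p of 0.448, and without cow 489215 it was -1.15 with an adjusted limma p of 0.0795.

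ADCY7 had 1008, 1091 and 1304 normalized counts in LF/LCL and 565, 801 and 702 in SF/SCL, without overlap. Its log2 fold change was -0.72 ± 0.22 (SE), with an unadjusted limma p of 0.0144 and an adjusted p of 0.437, and without cow 489215 it was -0.84 with an adjusted limma p of 0.0176. ADCY3 had 424 to 604 in LF/LCL and 225 to 387 in SF/SCL (log2 fold change -0.73 ± 0.30, unadjusted limma p 0.0495, adjusted p 0.577). All 3 genes separated the groups, but only ADCY7 was called without cow 489215. ADCY4 had 310, 419 and 376 in LF/LCL and 223, 312 and 184 in SF/SCL, the groups overlapping by cow 489215, and was called without it (-0.85, adjusted limma p 0.0315) but not with it (-0.64, adjusted limma p 0.618).

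ADCY2 was the one adenylyl cyclase for which cows 856 and 97 both lay above every LF/LCL cow. It had 80.6, 146 and 62.4 normalized counts in LF/LCL, 343 and 335 in those cows, and 42.6 in cow 489215, the lowest of the 6. Without cow 489215 its log2 fold change was 1.90, with an adjusted limma p of 0.0194, and with all libraries it was 0.91 ± 0.86 (SE). ADCY6, with the highest normalized count of the adenylyl cyclases, had 6819, 5277 and 5943 in LF/LCL and 4737, 5332 and 5430 in SF/SCL, with a log2 fold change of -0.21 (95% confidence interval -0.63 to 0.21). ADCY8, a calcium-stimulated isoform, had 1683 to 2449 in LF/LCL, 1546 and 2027 in cows 856 and 97, and 3845 in cow 489215, the highest of the 6. ADCY9 had 396 to 493 in the other 5 cows and 99.9 in cow 489215. The bicarbonate-activated soluble cyclase ADCY10 had 2.66 to 12.2 normalized counts.

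Guanylyl cyclases showed the largest group difference of the list and went in both directions. GUCY2D, a membrane guanylyl cyclase known from photoreceptors, had 148, 162 and 171 normalized counts in LF/LCL cows 617, 79 and 527, and 27.3, 71.9 and 8.67 in SF/SCL cows 856, 489215 and 97. These rest on 141 to 195 reads in LF/LCL and on 36, 54 and 8 reads in the SF/SCL libraries. The lowest LF/LCL cow was well above the highest SF/SCL cow, which was cow 489215. This gave a log2 fold change of -2.57 ± 0.72 (SE), with an unadjusted limma p of 0.0106 and an adjusted p of 0.415. Without cow 489215 it was -3.28 with an adjusted limma p of 0.00832, and over the fits that left out 1 cow it ranged from -3.28 to -1.83.

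GUCY2C, the membrane receptor of the guanylin peptides, was higher in SF/SCL. It had 44.0, 35.7 and 44.8 normalized counts in LF/LCL and 121, 70.6 and 108 in SF/SCL, without overlap. On the log2 scale the fold change was 1.22 ± 0.36 (SE), with an unadjusted limma p of 0.0126 and an adjusted p of 0.424, and an adjusted p of 0.0275 in DESeq2. Without cow 489215 it was 1.45 with an adjusted limma p of 0.0201. Of its ligand genes, GUCA2A had a single read in each of cows 79 and 489215, and GUCA2B was at 0 in all libraries.

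The soluble guanylyl cyclase, the receptor of nitric oxide, is a dimer of an alpha and a beta subunit. The beta subunit gene GUCY1B1 had 2827, 2598 and 2490 normalized counts in LF/LCL and 4012, 3965 and 3519 in SF/SCL, and every SF/SCL cow was above every LF/LCL cow. Its log2 fold change was 0.54 ± 0.16 (SE), with an unadjusted limma p of 0.0118 and an adjusted p of 0.420, and without cow 489215 it was 0.51 with an adjusted limma p of 0.0210. The alpha subunit gene GUCY1A1 had 2593, 2232 and 3146 in LF/LCL, 3335 and 3244 in cows 856 and 97, and 1001 in cow 489215. GUCY1A2 had 68.0, 77.9 and 85.2 in LF/LCL, 165 and 186 in cows 856 and 97, and 9.32 in cow 489215. Cow 489215 was thus the lowest for both alpha subunit genes and the second highest for the beta subunit gene. With all libraries the log2 fold change was -0.18 for GUCY1A2 (adjusted limma p 0.975, and 0.65 in DESeq2) and -0.25 for GUCY1A1 (adjusted limma p 0.917). Both signs turned without cow 489215, where GUCY1A2 was called (1.18, adjusted limma p 0.0213) and GUCY1A1 was not (0.32, adjusted limma p 0.182).

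**Figure D3:**
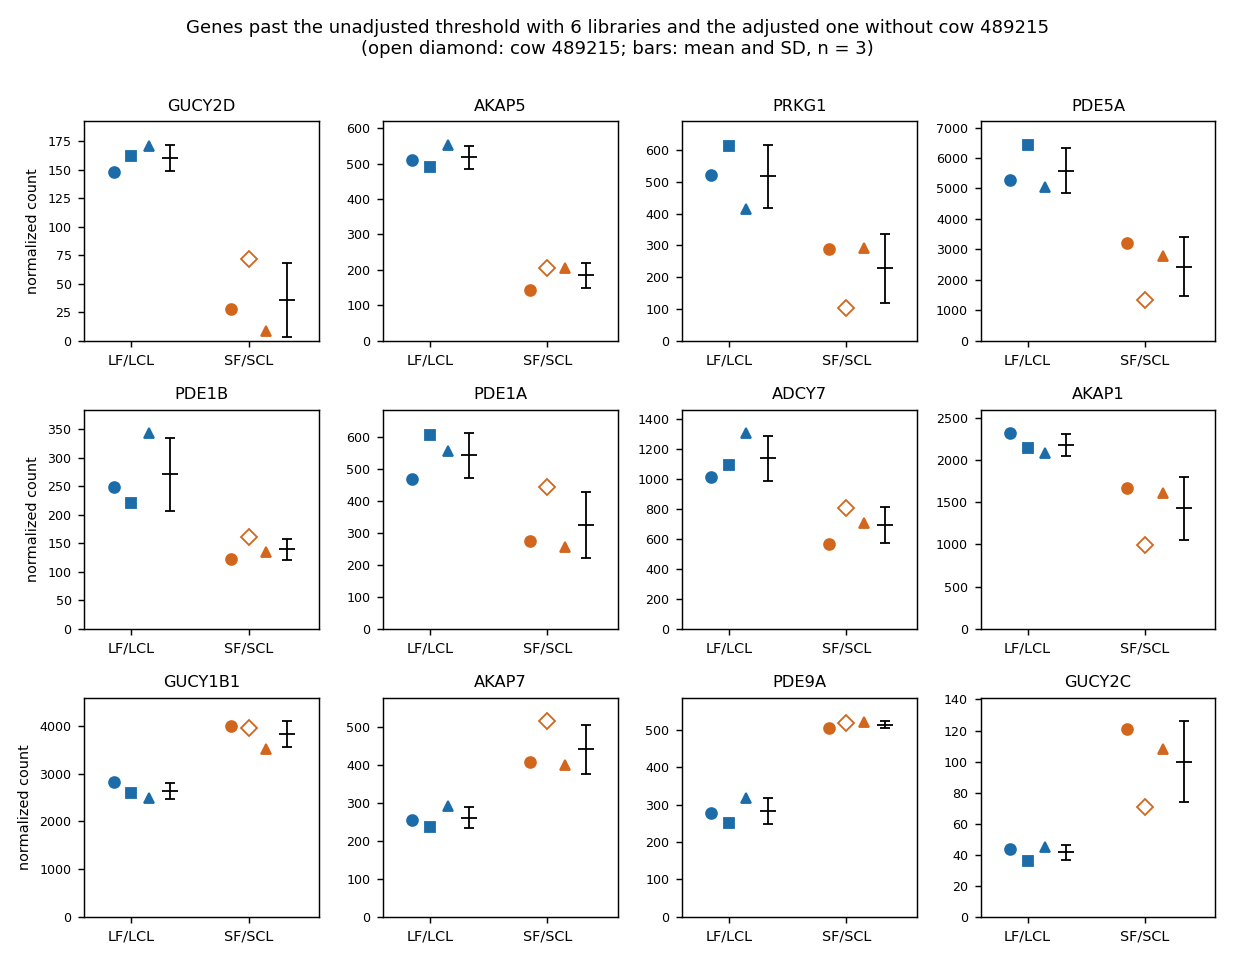
Normalized counts of each cow (points, with an open diamond for cow 489215) and the mean with SD (bars, n = 3 per group) for the 12 genes with an unadjusted limma p under 0.05 over 6 libraries and an adjusted p under 0.05 without cow 489215. Each y axis starts at 0. In all 12 panels the LF/LCL and SF/SCL points do not overlap, which selection by these p-values favours.

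The protein kinase A subunits differed least. None of the 6 had an unadjusted limma p under 0.05 with all libraries. PRKAR1A, a regulatory subunit gene, had 6953, 7173 and 6733 normalized counts in LF/LCL and 7081, 7718 and 6886 in SF/SCL, with a log2 fold change of 0.05 (95% confidence interval -0.32 to 0.43). The regulatory subunit gene PRKAR2B had 1210 to 1629 and 1235 to 1494, with a log2 fold change of -0.05 (95% confidence interval -0.51 to 0.41). All 6 cows were close for both genes.

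The catalytic subunit gene PRKACB had 2678, 2453 and 2639 normalized counts in LF/LCL, 1875 and 1801 in cows 856 and 97, and 3203 in cow 489215. It was called without cow 489215 (-0.49, adjusted limma p 0.0149) but not with it (-0.23, adjusted limma p 0.874). The other catalytic subunit gene, PRKACA, had 1400 to 1473 in LF/LCL and 991 to 1291 in SF/SCL without overlap, with a log2 fold change of -0.33 ± 0.18 (SE) and an unadjusted limma p of 0.115. The regulatory subunit gene PRKAR2A had 1020 to 1269 in 5 cows and 249 in cow 489215.

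PRKG1, the protein kinase G of smooth muscle, had 523, 614 and 416 normalized counts in LF/LCL cows 617, 79 and 527, and 290, 103 and 292 in SF/SCL cows 856, 489215 and 97. The groups did not overlap. The means were 518 ± 98.9 (SD, n = 3) and 228 ± 109 (SD, n = 3), and the log2 fold change was -1.31 ± 0.46 (SE), with an unadjusted limma p of 0.0265 and an adjusted p of 0.492. Without cow 489215 it was -0.81 with an adjusted limma p of 0.0327.

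Among AKAPs, AKAP5 had the lowest p of the whole list. This anchor of protein kinase A at the plasma membrane had 510, 489 and 553 normalized counts in LF/LCL and 142, 206 and 204 in SF/SCL, with all 3 SF/SCL cows far below every LF/LCL cow. The means were 517 ± 32.8 (SD, n = 3) and 184 ± 36.4 (SD, n = 3), and the log2 fold change was -1.50 ± 0.25 (SE). Its unadjusted limma p was 0.000707 and the adjusted p 0.351. DESeq2 gave an adjusted p of 3.78e-06, and limma without cow 489215 a log2 fold change of -1.60 with an adjusted p of 0.00505.

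AKAP7 was higher in SF/SCL, with 254, 237 and 292 normalized counts in LF/LCL and 408, 515 and 400 in SF/SCL. AKAP1, the anchor at the outer mitochondrial membrane, was lower, with 2323, 2141 and 2081 in LF/LCL and 1674, 999 and 1607 in SF/SCL. Neither gene overlapped between the groups. Their log2 fold changes were 0.75 ± 0.23 (SE) for AKAP7 (unadjusted limma p 0.0163, adjusted p 0.448) and -0.65 ± 0.24 (SE) for AKAP1 (unadjusted limma p 0.0335, adjusted p 0.514). Without cow 489215 the adjusted limma p-values were 0.0416 and 0.0296.

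AKAP3, an anchor known from the sperm tail, had 14 to 22 reads in LF/LCL libraries and 2 to 9 reads in SF/SCL libraries (log2 fold change -1.61 ± 0.55, unadjusted limma p 0.0244, adjusted p 0.482). AKAP9, the Golgi and centrosome anchor with the highest normalized count of the list, had 9227, 8488 and 8454 in LF/LCL, 10732 and 11801 in cows 856 and 97, and 5479 in cow 489215. It was called without that cow (0.37, adjusted limma p 0.0384) and had a log2 fold change of 0.02 with all libraries. AKAP11 had 4246 to 4811 in 5 cows and 1261 in cow 489215. AKAP12 had 2029, 3561 and 2653 in LF/LCL and 1562, 381 and 1827 in SF/SCL without overlap, with an unadjusted limma p of 0.0613. AKAP10, the mitochondrial anchor D-AKAP2, had 1608 to 1633 in LF/LCL and 1555 to 1643 in SF/SCL, with a log2 fold change of -0.01 (95% confidence interval -0.37 to 0.35). AKAP14, an anchor known from cilia, had 801 to 1323 in LF/LCL, 552 and 659 in cows 856 and 97, and 1526 in cow 489215.

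**Figure D4:**
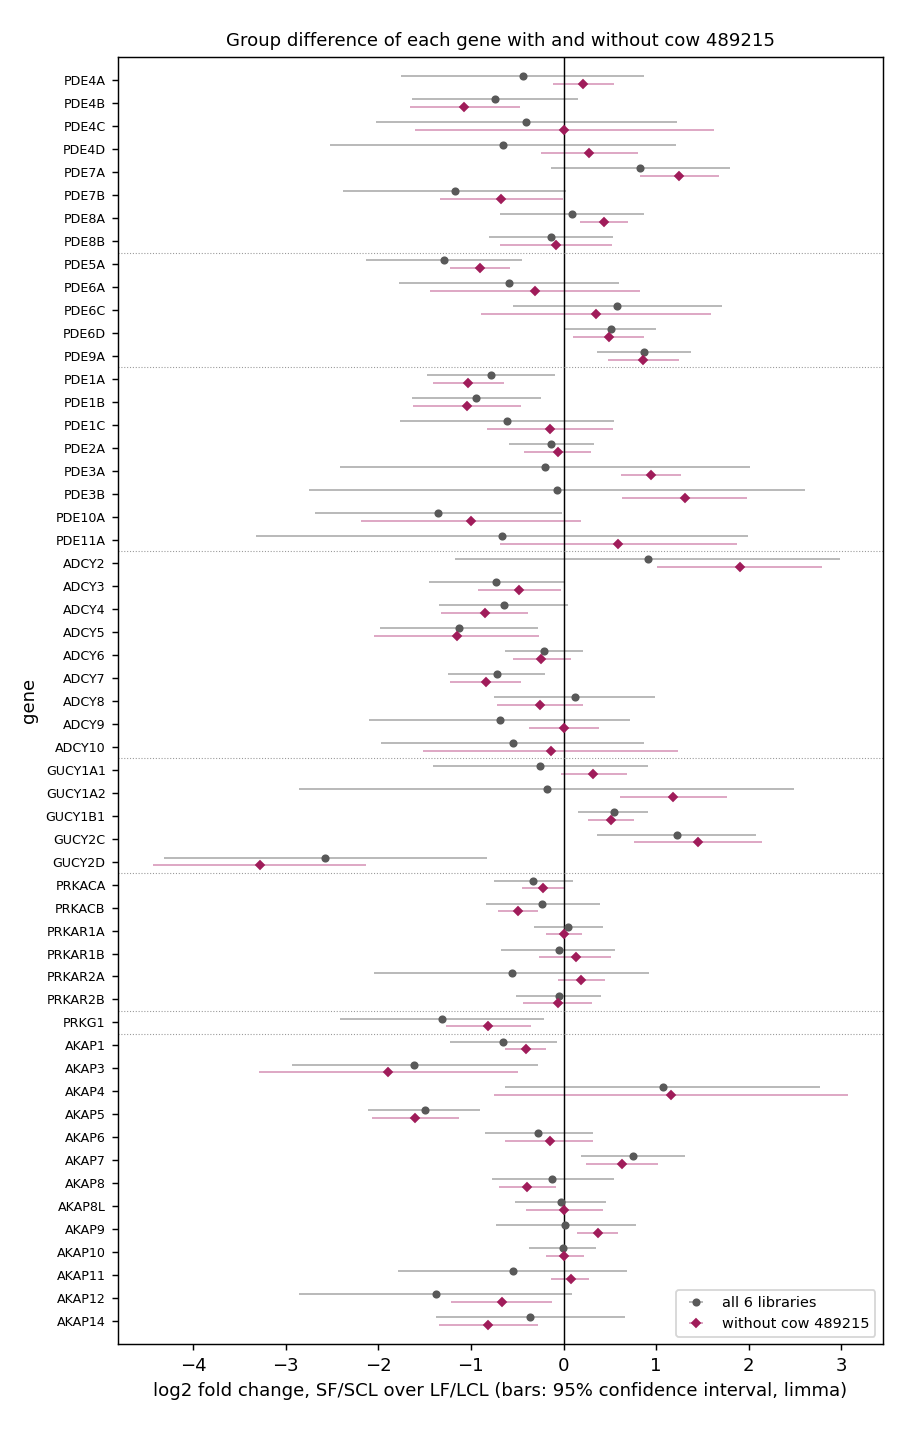
Log2 fold change of SF/SCL over LF/LCL in normalized count with its 95% confidence interval from limma, for the 55 tested genes by function, with all 6 libraries (grey points) and without cow 489215 (purple diamonds). Without that cow the intervals of PDE3A, PDE3B and GUCY1A2 leave 0 on the positive side, with log2 fold changes of 0.94, 1.31 and 1.18, and GUCY2D lies farthest to the left in both fits.

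The low values of cow 489215 recurred across the functions. Over the 55 genes, this cow was the lowest of the 6 for 29 genes (52.7%), compared with 35.7% of all genes tested, and the highest for 7 (12.7%), compared with 36.7%. Its value was under 50% of the lowest other cow for 15 genes (27.3%), compared with 15.8% of all genes. These 15 genes were PDE1C, PDE3A, PDE3B, PDE4A, PDE4D, PDE5A, PDE7B, PDE11A, GUCY1A1, GUCY1A2, ADCY9, PRKAR2A, PRKG1, AKAP11 and AKAP12. The 7 genes in which it was highest were PDE6C, ADCY8, PRKACB, PRKAR1A, AKAP7, AKAP8 and AKAP14.

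The other genes of the pathways, taken from a list of upstream G proteins and receptors and of downstream targets, comprised 63 genes found on 65 rows, of which 56 rows were tested. None was called with all libraries in limma (0 of 56), and 7 had an unadjusted limma p under 0.05 (12.5%, compared with 8.66% of all genes), 4 higher in LF/LCL and 3 in SF/SCL. Without cow 489215, 15 of 57 (26.3%) were called, compared with 18.2% of all genes. Of these, 11 were higher in LF/LCL (background 7.92%) and 4 in SF/SCL (background 10.3%). DESeq2 called 4 of the 56 (7.14%), compared with 2.66% of all genes.

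The 4 genes higher in LF/LCL were RAPGEF3, BVES, CRTC1 and SYNM. RAPGEF3 encodes EPAC1, a guanine nucleotide exchange factor that binds cAMP, and had 1400, 1482 and 1416 normalized counts in LF/LCL and 674, 1090 and 922 in SF/SCL (log2 fold change -0.70 ± 0.23, unadjusted limma p 0.0180). BVES encodes a cAMP-binding Popeye domain protein and had 417 to 438 in LF/LCL and 134 to 286 in SF/SCL (-0.97 ± 0.34, unadjusted limma p 0.0273). CRTC1, a coactivator of CREB, had 412 to 453 and 212 to 248 (-0.90 ± 0.22, unadjusted limma p 0.00470). The values of all 3 genes did not overlap between the groups. The same held for SYNM, an intermediate filament protein that anchors protein kinase A, with 20036, 20341 and 17035 in LF/LCL and 10112, 4730 and 8346 in SF/SCL (-1.37 ± 0.31, unadjusted limma p 0.00358).

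The 3 genes higher in SF/SCL were POPDC3, GSKIP and CNGA4. POPDC3, of the same Popeye domain family as BVES, had 366, 253 and 309 normalized counts in LF/LCL and 1136, 634 and 1255 in SF/SCL (1.66 ± 0.32, unadjusted limma p 0.00173). GSKIP, which binds protein kinase A and GSK3, had 2704 to 3076 and 4020 to 4983 (0.61 ± 0.17, unadjusted limma p 0.00846). Neither gene overlapped between groups, so BVES and POPDC3 went in opposite directions. CNGA4, of the cyclic nucleotide-gated channels, had 4.39 to 39.8 in LF/LCL and 29.3 to 101 in SF/SCL, with overlap (2.09 ± 0.86, unadjusted limma p 0.0476). The natriuretic peptide receptor genes NPR1 and NPR2, which are membrane guanylyl cyclases, were not called in either fit and were lowest in cow 489215, with 470 against 1000 to 1881 and 168 against 586 to 1007.

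Cell type marker lists were also measured in these samples of the whole wall, and limma called 0 of the 56 markers tested with 6 libraries. The filter left out OVGP1, FABP4 and the mesothelium and erythrocyte markers, so this 0 does not cover them. Without cow 489215 limma called 28 of 59 markers (47.5%), compared with 18.2% of all genes. Of these, 14 were higher in LF/LCL (background 7.92%) and 14 in SF/SCL (background 10.3%). The summed normalized count of 8 smooth muscle markers was 728721 to 847464 in LF/LCL cows, 339479 and 399048 in cows 856 and 97, and 1227276 in cow 489215. All 8 were higher in LF/LCL on average, and without cow 489215, 6 were called. The 6 fibroblast markers summed to 77125 to 102318 in LF/LCL and 47235 to 74193 in SF/SCL, and 4 were called without cow 489215. In bulk samples, fewer cells of a type and less RNA per cell cannot be told apart.

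Ciliated epithelium markers, 11 genes, summed to 34913 to 43767 in LF/LCL, 60734 and 67063 in cows 856 and 97, and 32214 in cow 489215. The 9 secretory and general epithelium markers found summed to 30177 to 44612, 321690 and 381676, and 71541, in the same order, and OVGP1, the oviduct glycoprotein, made most of the sums of cows 856 and 97 with 271794 and 325158. OVGP1 was at 287 to 1950 in LF/LCL cows and 730 in cow 489215, whereas EPCAM, KRT8 and KRT7 were highest of the 6 in cow 489215, with 20313, 13358 and 5507. Without that cow, limma called 9 of the 11 ciliated markers, all higher in SF/SCL. It also called 3 of the 8 secretory and general epithelium markers tested, all higher in SF/SCL. Mesothelium markers summed to 2452 to 3314 in LF/LCL, 26249 and 26728 in cows 856 and 97, and 3483 in cow 489215, with CALB2 at 0 to 6.84. These sums were mostly MSLN and WT1, and LRRN4 of the same list went the other way, with 283, 412 and 175 in LF/LCL and 3.80, 5.33 and 16.3 in SF/SCL cows 856, 489215 and 97. The 6 neural markers, mostly S100B, summed to 3172 to 5701, to 32443 and 29221, and to 9298, in the same order.

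Endothelial markers summed to 12833 to 16569 in LF/LCL, 10730 and 11312 in cows 856 and 97, and 15814 in cow 489215. Without that cow all 6 tested were higher in LF/LCL, and limma called 2, CDH5 and CLDN5 (background 7.92%). CDH5 did not overlap between the groups with all libraries (unadjusted limma p 0.0149, adjusted p 0.437). Leukocyte markers summed to 1972 to 3503 over all 6 cows, with the groups overlapping. Luteal and ovarian markers summed to 235 to 455, adipocyte markers to 5.42 to 74.6 and erythrocyte markers to 0.939 to 6.66. The defining markers of the isthmus wall, ACTA2 and MYH11 for muscle and FOXJ1 and EPCAM for epithelium, had at least 2609 normalized counts in every library.

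PDE5A and PRKG1, known from smooth muscle, were higher in LF/LCL than in cows 856 and 97, as was the sum of the muscle markers. In cow 489215, however, both genes were at their lowest, 1327 and 103 normalized counts, beside the highest sum of muscle markers. ACTA2, TAGLN, CNN1, DES and SMTN were each highest of the 6 in this cow, with 533926, 270402, 101922, 160319 and 24243. The remaining muscle markers did not share this peak. In cow 489215 SYNPO2 was the lowest of the 6 with 9453, MYH11 with 116653 was below every LF/LCL cow, and LMOD1 with 10359 was within the LF/LCL range. For PDE9A and GUCY1B1, cow 489215 lay between cows 856 and 97, whose marker sums differed from its own, and for AKAP5 it had 206, next to 204 in cow 97. The part of cell composition in these differences was not tested.

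**Figure D5:**
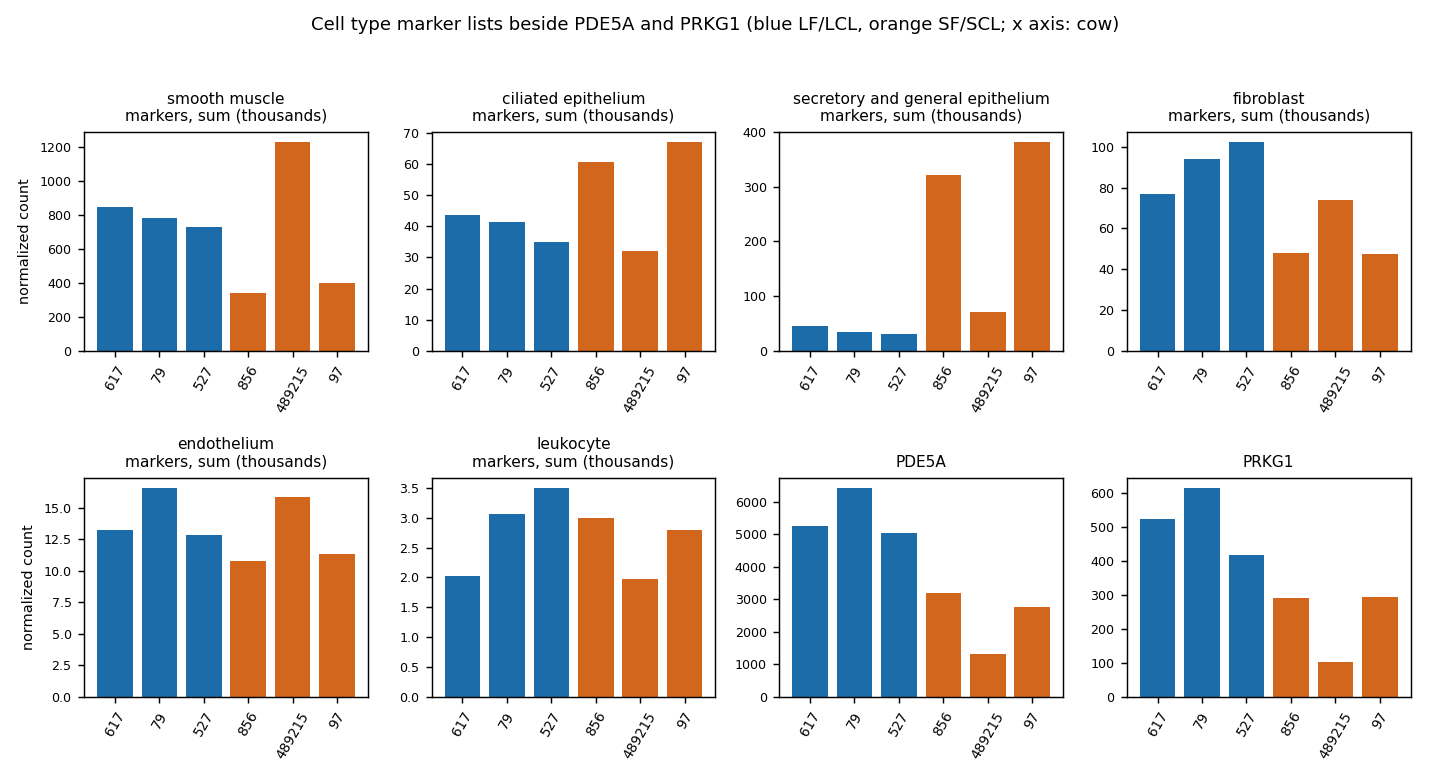
Bars of the summed normalized count of 6 cell type marker lists (divided by 1000) and of the normalized count of PDE5A and PRKG1, in each cow (blue LF/LCL, orange SF/SCL), with axes starting at 0. Cow 489215 has the highest sum of smooth muscle markers, 1227276, and the lowest PDE5A and PRKG1, 1327 and 103, while secretory and general epithelium markers reach 321690 and 381676 in cows 856 and 97.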

How the data were processed

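RNA-seq libraries of 6 isthmus samples (3 LF/LCL and 3 SF/SCL cows) were used. The authors filtered reads with seqyClean, aligned them with TopHat2 2.0.8 and Bowtie2 2.1.0 to the masked bovine genome UMD3.1, and used HTSeq 0.5.4p2 to count, for each Ensembl gene, the reads with a unique position. Whether counting used strand is not given in the sources used here. In the deposited signal values, each library's counts had been divided by its DESeq 1.12.1 size factor, for 24616 genes without a filter. Each value was a whole multiple of 1 step per library, and 100.0% of 147696 values gave whole reads within 0.05 reads. The recovered totals bound precision by counting error only.

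Values were analysed as log2(value + 1) with limma 3.58.1 in R 4.3.3 (trend and robust), without covariates, for the 15387 genes whose mean over 6 libraries exceeded both 5 and their SD. Fold changes on this scale understate those of low genes. P-values were adjusted over all genes by Benjamini-Hochberg, with a threshold of 0.05. edgeR 4.0.16 (quasi-likelihood) and DESeq2 1.42.0 on the recovered reads, other pseudocounts and filters, TMM rescaling and leaving out each cow were alternatives. The test script was run on simulated data. The genes, lists and alternatives were chosen with earlier results of these data known. Named genes were those with an unadjusted p under 0.05, those called when a cow was left out, and the 3 with the highest mean of each function. Other genes are named after their values were seen. The gene symbols are those of the deposited table, and each of the 60 was on 1 row. No sequences or positions are given.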

Additional observations from a re-analysis of the deposited data

How the results depend on the processing

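No paired analysis was possible because the cow numbers are not shared between LF/LCL and SF/SCL. Over all genes, limma called 0 with 6 libraries and DESeq2 called 409, and DESeq2 called 5 of the cyclic nucleotide genes and 4 of the other pathway genes, against 0 of each in limma and edgeR. The cause was not tested. Leaving out each cow gave 0 to 2827 calls over all genes, 0 to 22 among the 55 genes, 0 to 15 among the other pathway genes, 7 to 30 genes with an unadjusted p under 0.05 and 20 to 33 genes without overlap. Every count above 0 among the calls came from leaving out cow 489215. Pseudocounts of 0.5 and 5, the filter on the mean alone, no filter and TMM rescaling changed the direction of 0 of the 55 genes and made no call. The median log2 fold change of all genes was -0.016, or -0.026 after TMM rescaling alone, and 0.027 to 0.056 in the count models, which change the model as well as the scaling. The share higher in LF/LCL among the other pathway genes was 66.1% in limma and 51.8% in DESeq2, and among the 55 genes 76.4% and 70.9%. The direction of 3 genes was positive in the count models. PDE3B was at 0.77 in edgeR with TMM and 0.79 in edgeR with DESeq2 size factors and in DESeq2, PDE3A at 0.41, 0.43 and 0.43, and GUCY1A2 at 0.63, 0.65 and 0.65. The log2 fold change passed 0 when 1 cow was left out for 21 genes, none of them called with 6 libraries. The ranges were -0.94 to 1.31 for PDE3B, -0.81 to 0.94 for PDE3A, -0.91 to 1.18 for GUCY1A2, -0.55 to 0.32 for GUCY1A1, -1.18 to 0.28 for PDE4D, -0.82 to 0.21 for PDE4A, -0.97 to 0.01 for PDE4C, -1.37 to 0.59 for PDE11A, -0.22 to 0.00 for PDE2A, -0.10 to 0.44 for PDE8A, -0.37 to 0.05 for PDE8B, -1.07 to 0.00 for ADCY9, -0.25 to 0.41 for ADCY8, -0.98 to 0.19 for PRKAR2A, -0.16 to 0.05 for PRKAR2B, -0.17 to 0.13 for PRKAR1B, -0.39 to 0.04 for AKAP8, -0.18 to 0.11 for AKAP8L, -0.18 to 0.37 for AKAP9, -0.03 to 0.01 for AKAP10 and -0.89 to 0.08 for AKAP11. The 4 genes at a mean of 5 or less are limited by depth.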

Other observations

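Several regulators around these enzymes, named here after their values were seen, lay on the same side of the LF/LCL cows in cows 856 and 97, and cow 489215 differed from both. The protein kinase A inhibitor gene PKIB had 1587, 2118 and 739 normalized counts in LF/LCL cows 617, 79 and 527, 7185 and 3558 in cows 856 and 97, and 1664 in cow 489215. Its paralogs PKIA and PKIG were lower in cows 856 and 97 than in every LF/LCL cow, with 103 and 73.7 against 178 to 208 for PKIA, and 1022 and 1360 against 1782 to 2121 for PKIG. Cow 489215 had 176 for PKIA, just under the LF/LCL cows, and 2925 for PKIG, the highest of the 6. Without cow 489215, limma called all 3, with log2 fold changes of 1.90 for PKIB (adjusted p 0.0404), -1.12 for PKIA (adjusted p 0.0245) and -0.74 for PKIG (adjusted p 0.0213). With all 6 libraries none had an unadjusted p under 0.05, and the log2 fold changes were 1.37, -0.79 and -0.30.

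ABCC4, an exporter of cyclic nucleotides, had 112, 115 and 111 normalized counts in LF/LCL, 646 and 539 in cows 856 and 97, and 50.6 in cow 489215, the lowest of the 6. GNAL, a stimulatory G protein alpha subunit, had 1114, 1082 and 1206 in LF/LCL, 249 and 310 in cows 856 and 97, and 1177 in cow 489215, within the LF/LCL range. MRVI1, a substrate of protein kinase G, had 12527 to 14159 in LF/LCL, 6606 and 4062 in cows 856 and 97, and 17016 in cow 489215. With all 6 libraries none of the 3 was called, with log2 fold changes of 1.21 for ABCC4 (adjusted limma p 0.821), -1.33 for GNAL (adjusted limma p 0.6) and -0.81 for MRVI1 (adjusted limma p 0.748). Limma without cow 489215 gave log2 fold changes of 2.38 for ABCC4 (adjusted p 0.00205), -2.02 for GNAL (adjusted p 0.00188) and -1.38 for MRVI1 (adjusted p 0.00810).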
